A study of Mus musculus with 36 samples.

Results

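A set of 10 genes that govern phosphate, pyrophosphate and mineral formation in bone was followed across tibiae of progeria mice with and without base editing: Phex, Fgf23, Fam20c, Enpp1, Ank, Alpl, Phospho1, Smpd3, Slc20a1 and Slc20a2. They were chosen by symbol, each symbol gave 1 row, and they are 10 of 56246 genes in the table. Messenger RNA of tibial bone was sequenced from 36 mice of 6 months of age, 12 in each group with 6 males and 6 females. Wild-type mice (Lmna +/+) were not treated. The other groups both carried LMNA G608G/G608G, a human LMNA transgene on a bacterial artificial chromosome in C57BL/6J mice that makes progerin, and were injected behind the eye at postnatal day 14. Saline-treated mice received saline. ABE-treated mice received an adenine base editor, an enzyme that turns A into G at the mutated site, split over a pair of AAV9 vectors and joined in the cell by an intein. The epiphyses and marrow had been removed, which left mostly cortical bone. Wild-type mice carry their own series of animal numbers and no injection, so genotype, any difference in batch and handling cannot be told apart in a comparison with wild-type.

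Mineral forms in bone when calcium meets inorganic phosphate, and extracellular pyrophosphate stops it. ENPP1 makes pyrophosphate from nucleotides, ANK carries it out of the cell, and the alkaline phosphatase made by Alpl splits it into phosphate. PHOSPHO1 and the sphingomyelinase made by Smpd3 release phosphate and its precursor phosphocholine in matrix vesicles, the small sacs in which mineral starts. Slc20a1 and Slc20a2 encode the sodium-phosphate cotransporters PiT1 and PiT2. FGF23 is the hormone by which osteocytes make the kidney excrete phosphate; PHEX, a peptidase on osteocytes and osteoblasts, holds it down, and FAM20C phosphorylates FGF23 and the acidic proteins of the bone matrix.

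Values are scaled TPM, transcript abundances per length of gene and per library. Each library was divided by a scaling factor, the median ratio of its genes to the average library. Between 48064068 and 116206662 reads fell on genes per library, and the scaling factors ran from 0.216 to 1.57, the lowest in ABE-treated replicate 1, a library that stood apart. Very short genes held 84.7% to 96.6% of deposited TPM but 0.21% to 1.0% of reads, so levels of longer genes, the 10 members included, are low numbers backed by many reads. Among members, Fgf23 was thinly covered, with 17 to 316 reads per library, and Phospho1 had 176 to 509; each of the other 8 had at least 1480. All 10 passed the minimum mean of 0.1 scaled TPM. Osteocyte markers (Dmp1, Mepe, Sost, Pdpn, Irx5 and Ackr3) were present in every group, and their summed scaled TPM was 10.4 to 48.6 in wild-type, 169.7 to 484 in saline-treated and 176 to 347 in ABE-treated tibiae, with no overlap of wild-type with either progeria group. Skeletal muscle markers summed to 179 to 2797, 272 to 7001 and 929.9 to 11524 scaled TPM in the same order. In bulk tissue, fewer cells of a type and less RNA per cell cannot be told apart.

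The promoters of 4 members are shown, the 3 that rose together in both progeria groups and varied together between mice (Phex, Fam20c and Enpp1) and the one that fell in both (Slc20a1). RefSeq promoter sequences on GRCm38.p6 matched 8 of 10 members. Each runs from 250 bases before the annotated start of transcription to 10 bases after it, and capitals mark matches to 7 motifs searched on both strands of the 300 bases from 250 before to 50 after the start: the RUNX site TGTGGT, the TATA box TATAAA, the GC box GGGCGG, the AP-1 site TGANTCA, the CRE element TGACGTCA, the hexamer AGGTCA of nuclear receptors, and the site of MEF2.
Phex, chrX:157415277-157415536, minus strand: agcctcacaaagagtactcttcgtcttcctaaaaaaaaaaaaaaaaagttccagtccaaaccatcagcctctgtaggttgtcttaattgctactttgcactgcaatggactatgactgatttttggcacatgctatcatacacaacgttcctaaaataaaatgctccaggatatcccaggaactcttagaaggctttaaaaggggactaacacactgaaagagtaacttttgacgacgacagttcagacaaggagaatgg
Fam20c, chr5:138754831-138755090, plus strand: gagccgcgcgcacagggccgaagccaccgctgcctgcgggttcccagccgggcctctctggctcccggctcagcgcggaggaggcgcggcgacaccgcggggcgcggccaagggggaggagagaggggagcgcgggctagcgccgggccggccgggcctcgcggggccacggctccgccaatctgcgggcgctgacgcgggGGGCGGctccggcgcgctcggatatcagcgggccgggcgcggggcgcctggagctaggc
Enpp1, chr10:24712150-24712409, minus strand: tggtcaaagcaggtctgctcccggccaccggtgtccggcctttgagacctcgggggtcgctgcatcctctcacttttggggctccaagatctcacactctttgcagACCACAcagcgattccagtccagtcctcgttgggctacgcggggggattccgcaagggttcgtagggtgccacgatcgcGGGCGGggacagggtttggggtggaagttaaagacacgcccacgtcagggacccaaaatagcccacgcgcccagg
Slc20a1, chr2:129198523-129198782, plus strand: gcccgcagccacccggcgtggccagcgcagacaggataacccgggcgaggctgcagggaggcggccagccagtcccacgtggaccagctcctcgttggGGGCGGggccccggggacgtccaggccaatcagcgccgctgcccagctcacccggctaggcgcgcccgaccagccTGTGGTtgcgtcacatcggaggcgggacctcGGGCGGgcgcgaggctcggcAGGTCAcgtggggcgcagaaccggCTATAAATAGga

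The 4 windows of 300 bases differed in base content and in motif matches. Phex was poor in G and C (38.7%, against a median of 52.7% over all 32851 promoters searched) and held none of the 7 motifs. Fam20c was 80.7% G and C and held a single GC box. Enpp1 (61.7%) held a RUNX match on the reverse strand at position -144, counted back from the start, and a GC box at -65. Slc20a1 (73%) held a RUNX match at -77, 2 GC boxes, the hexamer of nuclear receptors at -26, and at the start itself a MEF2 match that overlaps a TATA box match. Over all promoters, RUNX letters occurred in 16.8%, the TATA box in 13.6%, the GC box in 35.7%, AP-1 in 7.81%, CRE in 1.79%, the hexamer in 16.3% and MEF2 in 3.69%. These are matches of letters, and none of the 7 occurred in all 3 of the members that rose together, although Fam20c and Enpp1 both held a GC box.

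The first comparison asks how progeria bone differs from wild-type bone. Of the 10 members, 4 rose in saline-treated tibiae (Phex, Fam20c, Ank and Enpp1), 2 fell (Slc20a1 and Smpd3) and 4 did not pass the test, limma on log2(scaled TPM + 0.1) with sex as a covariate and p adjusted over 22561 genes. Over all genes, 23.7% were called higher and 26.4% lower, so 6 calls in 10 members is near the share over all genes. That split depends on the scaling: in TPM as deposited 1462 genes were called higher and 4862 lower, beside 5348 and 5954 here. The median log2 difference was 0.40 over the members and -0.0027 over all genes. The groups did not overlap for Phex (higher; 2.31% of all genes) and for Slc20a1 (lower; 4.8% of all genes).

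**Figure D1:**
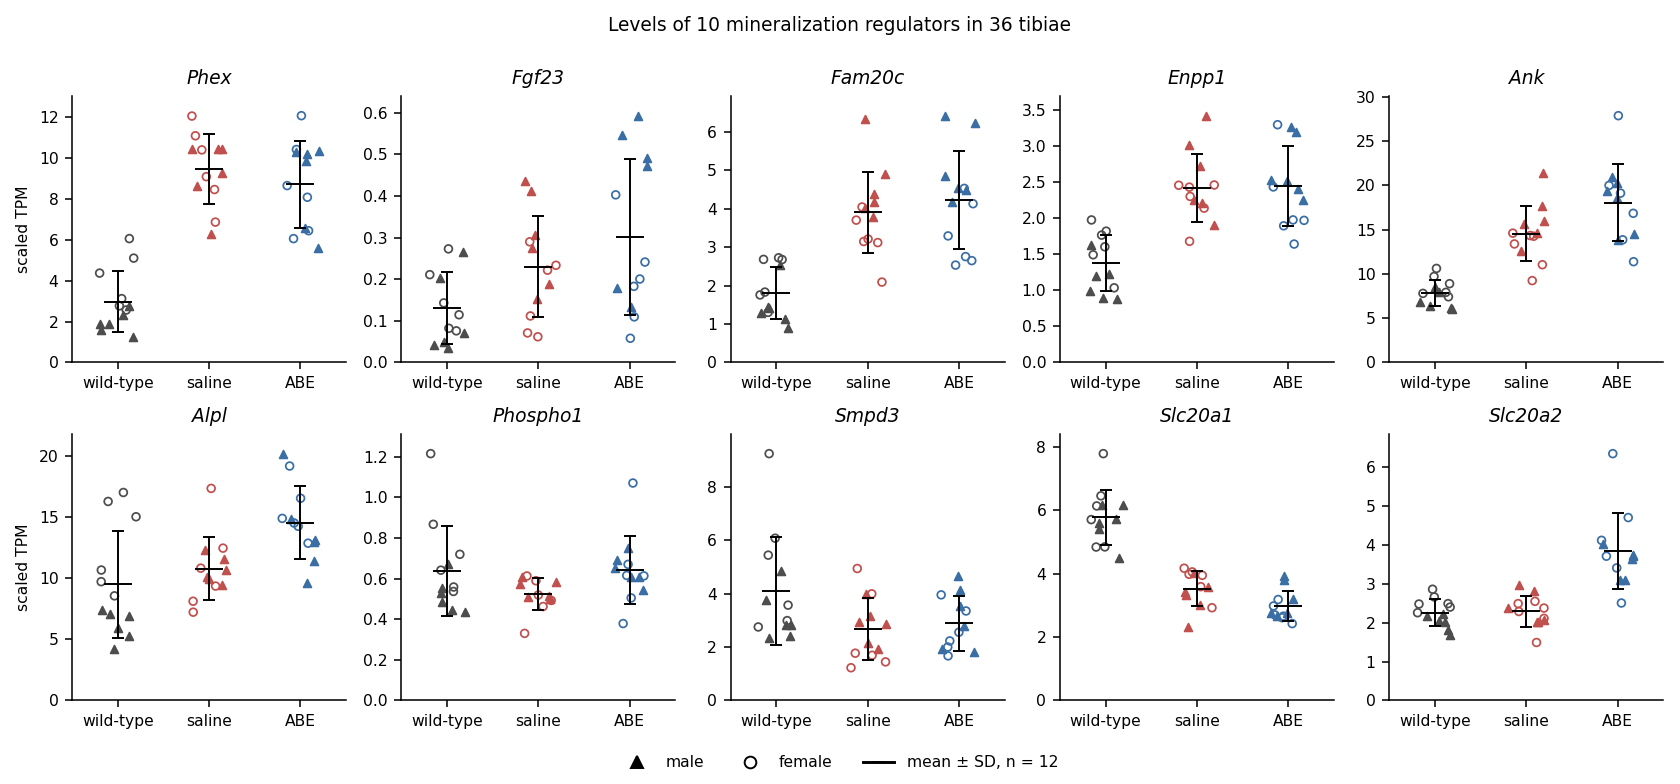
Scaled TPM (y axis) of each member in the 36 libraries by group, with filled triangles for males, open circles for females, and bars for the mean ± SD of 12 libraries. Saline-treated and ABE-treated Phex lies at 5.601 or more while 11 of 12 wild-type libraries lie below that, Slc20a1 of both progeria groups lies below all wild-type libraries, and 11 of 12 ABE-treated libraries lie above all others for Slc20a2.

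The genes of the phosphate hormone pathway were mostly higher in progeria bone. Phex (ENSMUSG00000057457.11, chrX:157162075-157415312, minus strand, GRCm38) was 1.23, 2.66 and 6.06 scaled TPM in wild-type mice (lowest, median and highest), 6.30, 9.83 and 12.1 with saline and 5.601, 9.25 and 12.1 with ABE. Every saline-treated library was above every wild-type library, and 10 of 12 ABE-treated libraries were. The log2 difference from wild-type was 1.76 ± 0.18 (SE, 3.38-fold, adjusted p = 8.63e-10) with saline and 1.62 ± 0.18 (adjusted p = 2.59e-09) with ABE, and ABE-treated and saline-treated tibiae differed by -0.14 (95% CI -0.49 to 0.22, adjusted p = 0.56).

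Fam20c (ENSMUSG00000025854.15, chr5:138754514-138810077, plus strand) had a wild-type level of 0.897, 1.60 and 2.72 scaled TPM, a saline-treated level of 2.09, 3.90 and 6.34, and an ABE-treated level of 2.53, 4.33 and 6.42. Only the lowest saline-treated library reached into the wild-type range. The kinase gene rose by 1.11 ± 0.18 on the log2 scale with saline (adjusted p = 4.58e-06) and by 1.20 ± 0.18 with ABE (adjusted p = 5.89e-07), with 0.09 between the progeria groups (95% CI -0.27 to 0.45).

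Fgf23 (ENSMUSG00000000182.9, chr6:127072902-127081408, plus strand), the hormone gene, had the lowest level of the 10 in each group. Its scaled TPM was 0.0344, 0.0983 and 0.273 in wild-type mice, 0.0617, 0.228 and 0.435 with saline and 0.0580, 0.221 and 0.593 with ABE, and the groups overlapped widely. The difference from wild-type was 0.52 ± 0.24 with saline (adjusted p = 0.069), which did not pass, and 0.74 ± 0.24 with ABE (adjusted p = 0.0065), which did. The saline value passed in some other fits. With limma-voom on recovered reads it was 1.001 (adjusted p = 0.045). Leaving out wild-type replicate 6 or 12 or saline-treated replicate 1 or 5 gave 0.58 to 0.61 with adjusted p from 0.032 to 0.045. With the skeletal muscle markers as a covariate the ABE value was 0.43 (adjusted p = 0.31).

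The pyrophosphate suppliers also rose. Ank (ENSMUSG00000022265.7, chr15:27466677-27594909, plus strand), the pyrophosphate exporter, was 6.08, 7.86 and 10.6 scaled TPM in wild-type mice, 9.25, 14.5 and 21.4 with saline and 11.4, 18.9 and 27.9 with ABE. No ABE-treated library overlapped wild-type, and 1 saline-treated library did. It rose by 0.88 ± 0.13 with saline (adjusted p = 7.03e-07) and by 1.17 ± 0.13 with ABE (2.26-fold, adjusted p = 1.93e-09), and the progeria groups differed by 0.30 (95% CI 0.04 to 0.55, adjusted p = 0.052), which did not pass. With the muscle covariate the ABE value against wild-type was 0.69 (adjusted p = 6.32e-05) and that against saline 0.05. With the osteocyte covariate neither rise against wild-type passed (-0.18 with saline, adjusted p = 0.73, and 0.18 with ABE, adjusted p = 0.73).

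Enpp1 (ENSMUSG00000037370.13, chr10:24637914-24712159, minus strand), the enzyme that makes pyrophosphate, was 0.876, 1.36 and 1.97 scaled TPM in wild-type mice, 1.68, 2.36 and 3.42 with saline and 1.64, 2.42 and 3.29 with ABE. Against wild-type, 10 of 12 saline-treated and 9 of 12 ABE-treated libraries lay above the whole wild-type range. It rose by 0.79 ± 0.13 with saline (adjusted p = 8.51e-06) and by 0.80 ± 0.13 with ABE (adjusted p = 3.23e-06), and the progeria groups were 0.01 apart (95% CI -0.26 to 0.28).

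Alpl (ENSMUSG00000028766.10, chr4:137741733-137796384, minus strand), the phosphatase that removes pyrophosphate, was 4.22, 7.96 and 17.0 scaled TPM in wild-type mice, 7.22, 10.4 and 17.4 with saline and 9.63, 14.4 and 20.2 with ABE. The wild-type range covered nearly all of the saline-treated range. The difference from wild-type was 0.28 ± 0.16 with saline (adjusted p = 0.15), which did not pass, and 0.71 ± 0.16 with ABE (adjusted p = 0.00025), which did. ABE-treated libraries were also higher than saline-treated ones by 0.43 ± 0.16 (1.35-fold, adjusted p = 0.030, 11 of 12 above the saline median). That call was lost without saline-treated replicate 1, 2 or 6 or ABE-treated replicate 12 (0.36 to 0.40, adjusted p from 0.053 to 0.064), and with the muscle covariate it was 0.35 (adjusted p = 0.19).

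**Figure D2:**
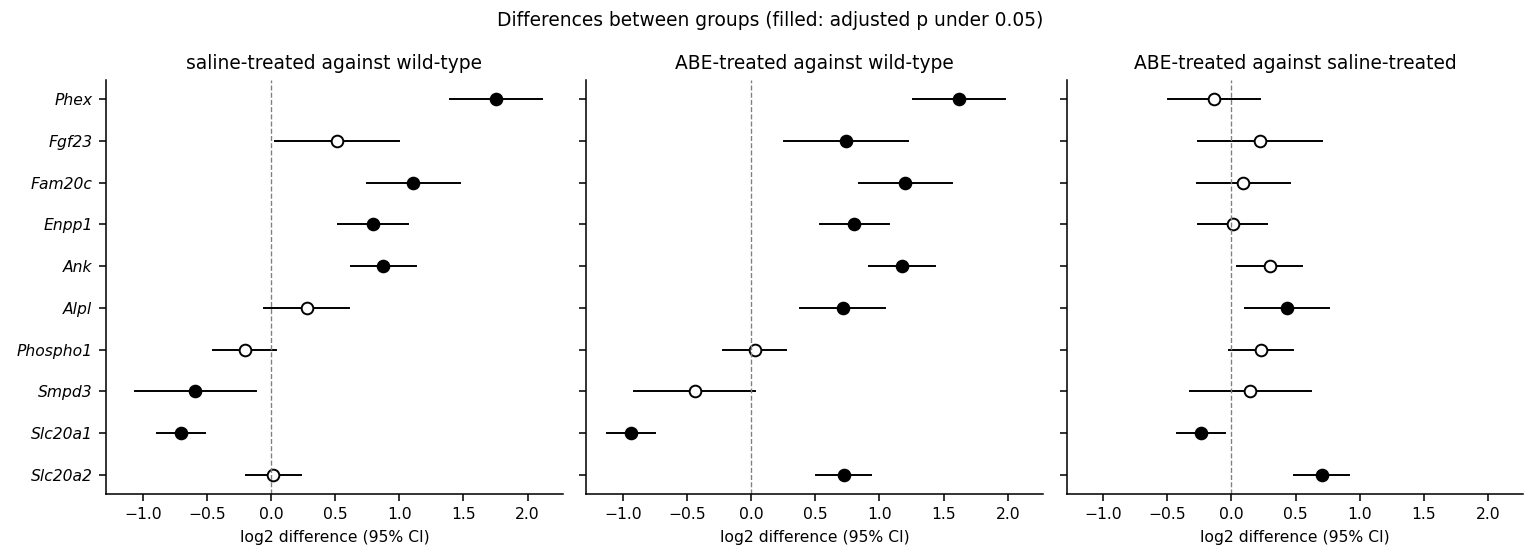
Log2 difference between groups (x axis, 95% CI as a line) of each member in 3 comparisons, fitted on log2(scaled TPM + 0.1) in 36 libraries, with filled points for an adjusted p under 0.05. Both comparisons with wild-type show Phex highest (1.76 and 1.62) and Slc20a1 lowest (-0.70 and -0.94), while the comparison of ABE with saline shows 3 filled points, Slc20a2 at 0.70, Alpl at 0.43 and Slc20a1 at -0.24.

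Neither matrix vesicle gene was called higher. Smpd3 (ENSMUSG00000031906.9, chr8:106252548-106337988, minus strand) was 2.35, 3.28 and 9.24 scaled TPM in wild-type mice, 1.22, 2.51 and 4.94 with saline and 1.67, 2.67 and 4.66 with ABE. It fell by 0.59 ± 0.23 on the log2 scale with saline (adjusted p = 0.034), and 6 of 12 saline-treated libraries lay below the wild-type range. Leaving out any of wild-type replicates 1, 6, 9 and 12 or saline-treated replicates 1, 2, 4, 6 and 12 ended this call, as did the muscle covariate (-0.60, adjusted p = 0.059); the single libraries gave values from -0.56 to -0.47 and adjusted p from 0.054 to 0.074. The ABE value was -0.44 ± 0.23 (adjusted p = 0.092). Chondrocyte markers were lower than wild-type in 6 of 6 genes with saline (median -1.98, 26.4% of all genes lower). With ABE 6 of 6 were lower as well (median -1.45, 34.1% of all genes lower). Between mice of the same group and sex, Smpd3 had a Pearson r of 0.53 with these markers and 0.90 with osteoblast markers. Their part in the Smpd3 values was not tested.

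Phospho1 (ENSMUSG00000050860.6, chr11:95824499-95832140, plus strand), the phosphatase of phosphocholine, was 0.434, 0.555 and 1.22 scaled TPM in wild-type mice, 0.330, 0.517 and 0.613 with saline and 0.379, 0.615 and 1.07 with ABE. On scaled TPM no comparison passed the test: the difference was -0.20 with saline (95% CI -0.45 to 0.04), 0.03 with ABE (95% CI -0.22 to 0.27) and 0.23 between ABE and saline (95% CI -0.02 to 0.48).

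The phosphate cotransporters moved in opposite directions in ABE-treated tibiae, and Slc20a1 alone passed the test in saline-treated tibiae. Slc20a1 (ENSMUSG00000027397.14, chr2:129198764-129211616, plus strand; PiT1) was 4.51, 5.71 and 7.79 scaled TPM in wild-type mice, 2.32, 3.58 and 4.17 with saline and 2.42, 2.75 and 3.92 with ABE. All 24 progeria libraries lay below all 12 wild-type libraries. It fell by 0.70 ± 0.09 on the log2 scale with saline (1.62-fold, adjusted p = 1.39e-07) and by 0.94 ± 0.09 with ABE (1.92-fold, adjusted p = 3.34e-10). ABE-treated and saline-treated libraries overlapped, and the difference between them of -0.24 ± 0.09 (adjusted p = 0.034) was lost in 10 of 36 fits with 1 library left out, those without saline-treated replicates 2, 4, 5, 6 and 10 and ABE-treated replicates 1, 4, 6, 8 and 12 (-0.23 to -0.21, adjusted p from 0.050 to 0.068), and was -0.13 (adjusted p = 0.35) with the muscle covariate. Erythroid markers, which Slc20a1 followed between mice, were lower with ABE in 5 of 6 genes against saline (median -0.96, 20.2% of all genes lower). Against wild-type 5 of 6 were lower (median -0.76, 34.1% of all genes lower). With covariates for 4 cell types (muscle, neutrophil, B cell, erythroid), the difference between ABE and saline was -0.0098 (adjusted p = 0.96). In that fit the differences from wild-type were -0.64 with saline (adjusted p = 0.0022) and -0.65 with ABE (adjusted p = 0.00072). No fit held erythroid markers alone, so their part was not tested. With the osteocyte covariate the differences from wild-type were -0.46 with saline (adjusted p = 0.22) and -0.71 with ABE (adjusted p = 0.052).

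Slc20a2 (ENSMUSG00000037656.9, chr8:22476788-22569612, plus strand; PiT2) set ABE-treated tibiae apart. It was 1.68, 2.24 and 2.86 scaled TPM in wild-type mice, 1.49, 2.33 and 2.97 with saline and 2.51, 3.72 and 6.36 with ABE. In 11 of 12 ABE-treated libraries it lay above every saline-treated library. Saline-treated tibiae differed from wild-type by 0.02 (95% CI -0.20 to 0.23), while ABE-treated tibiae were higher than saline-treated by 0.70 ± 0.11 (1.63-fold, adjusted p = 8.61e-05) and than wild-type by 0.72 ± 0.11 (adjusted p = 5.24e-07). Muscle markers were also highest in ABE-treated tibiae. With them as a covariate the ABE values were 0.44 (adjusted p = 4.21e-05) against saline and 0.22 (adjusted p = 0.020) against wild-type. In that limma fit saline-treated tibiae differed from wild-type by -0.22 (adjusted p = 0.0026), which passed. In TPM as deposited, in which the median gene was 0.31 lower in ABE-treated than in saline-treated libraries, Slc20a2 was 0.31 higher (adjusted p = 0.0996).

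Against wild-type, ABE-treated tibiae had 7 members higher (Phex, Fam20c, Ank, Enpp1, Fgf23, Slc20a2 and Alpl) and 1 lower (Slc20a1), beside 33% of all genes called higher and 34.1% lower. Ank did not overlap wild-type on the high side (3.18% of all genes) and Slc20a1 on the low side (5.35%). Against saline-treated, 2 members were higher and 1 lower, beside 23.3% and 20.2% of all genes, and none separated the groups (0.0266% of all genes higher and 0.0133% lower). In TPM as deposited, 6 members were called with ABE against wild-type, without Enpp1 (0.26, adjusted p = 0.24), Alpl (0.13, adjusted p = 0.65), Fgf23 (0.49, adjusted p = 0.086) and Slc20a2 (0.16, adjusted p = 0.38) and with Smpd3 (-1.0, adjusted p = 0.0031) and Phospho1 (-0.46, adjusted p = 0.0094). Without ABE-treated replicate 1, the library that stood apart, 8 members were called with ABE against wild-type and 2 with ABE against saline. The comparisons with wild-type share the 12 wild-type libraries. With the mean of the osteocyte markers as a covariate, Fam20c turned to -1.29 (adjusted p = 0.00013) with saline and -1.07 (adjusted p = 0.0012) with ABE, Enpp1 to -0.93 and -0.83, and Phex to -0.44 and -0.46, neither of which passed. Osteocyte markers did not overlap between wild-type and progeria libraries, so that fit rests on the slope within groups carried beyond their ranges.

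Ratios within a library do not depend on its scaling factor, but they can vary with tissue make-up. No ratio was fitted with a cell type covariate. The ratio of Slc20a1 to Slc20a2 was 1.69 to 3.68 in wild-type, 0.782 to 2.80 in saline-treated and 0.381 to 1.27 in ABE-treated tibiae, so no ABE-treated library overlapped wild-type. On the log2 scale the saline-treated mean differed from wild-type by -0.73 (two-sided permutation test with 100000 resamples, adjusted p = 0.00076 over 12 tests), the ABE-treated mean from wild-type by -1.71 (p = 1e-05 unadjusted, the smallest the permutations can give; adjusted p = 0.00012) and the ABE-treated mean from saline by -0.97 (permutation test, adjusted p = 0.00048). Between mice of the same group and sex, Slc20a2 had a Pearson r of 0.85 with skeletal muscle markers, and Slc20a1 one of 0.66 with erythroid markers. Summed muscle markers had a median of 917 scaled TPM in wild-type mice, 1799 with saline and 5572 with ABE. For summed erythroid markers the medians were 215, 234 and 110. The part of muscle and erythroid cells in the ratio of Slc20a1 to Slc20a2 was not tested. Alpl to Enpp1, the phosphatase over the enzyme whose product it splits, had a median of 6.64 in wild-type mice, 4.39 with saline and 6.01 with ABE. Its log2 difference was -0.56 between saline and wild-type (permutation test, adjusted p = 0.0091) and 0.43 between ABE and saline (adjusted p = 0.024), and -0.13 between ABE and wild-type (adjusted p = 0.46).

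Alpl to Ank, the phosphatase over the exporter, had medians of 1.10, 0.709 and 0.884 in wild-type mice, with saline and with ABE. It differed by -0.60 between saline and wild-type (permutation test, adjusted p = 0.014) and by -0.46 between ABE and wild-type (adjusted p = 0.049), the latter lost in 24 of 36 fits with 1 library left out (adjusted p up to 0.092). Fgf23 to Phex had medians of 0.0383, 0.0230 and 0.0349, and its difference of -0.88 between saline and wild-type (permutation test, adjusted p = 0.049) was likewise lost in 24 of 36. For both ratios those 24 include libraries of every group, also groups not compared, through the adjustment over 12 tests.

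**Figure D3:**
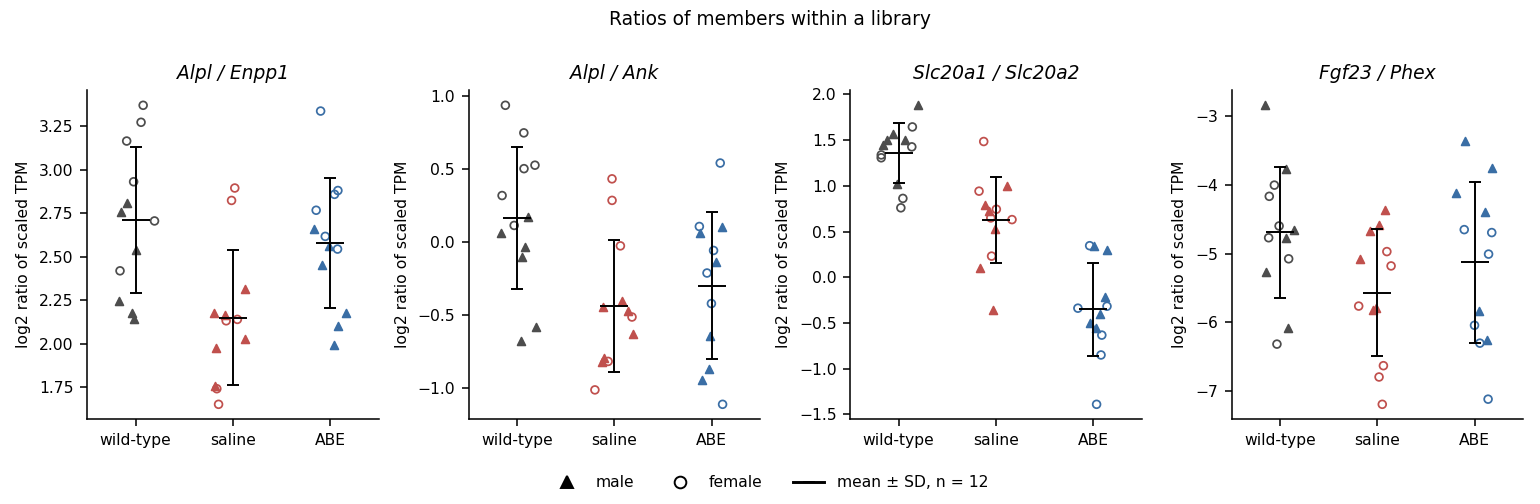
Log2 ratio of scaled TPM of a pair of members within a library (y axis) by group, with triangles for males, open circles for females and bars for the mean ± SD of 12 libraries. Slc20a1 to Slc20a2 steps down from wild-type (mean 1.36) through saline (0.62) to ABE (-0.35), and Alpl to Enpp1 is lowest with saline (2.15, against 2.71 in wild-type and 2.58 with ABE). The ratios are not adjusted for tissue make-up.

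The order of levels, which can be compared between genes because TPM are per length, also changed. In wild-type tibiae Alpl (mean 9.51 scaled TPM) and Ank (7.85) led, in an order held by 8 of 12 libraries, followed by Slc20a1 (5.78), Smpd3 (4.09) and Phex (2.97). In saline-treated tibiae Ank (14.6) led Alpl (10.8) in 10 of 12 libraries, and Phex (9.47) came next. Phex stood above Fam20c in all 12 libraries of both progeria groups, whereas Phex, Slc20a2 and Fam20c of wild-type tibiae were neighbours whose order held in 8 and 9 of 12. Slc20a1 (5.78) stood above Smpd3 and Phex in wild-type tibiae and below Phex and, by its mean, Fam20c in progeria tibiae, and with ABE it lay below Slc20a2 in 9 of 12 libraries. Phospho1 (0.524 to 0.642) and Fgf23 (0.130 to 0.301) were lowest in every group.

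Levels differed between the sexes in the wild-type group, which is given as a description without a test. Wild-type females had a higher mean than wild-type males for all 10 members (51.2% of all genes), against 3 of 10 in saline-treated (46.6% of all genes) and 3 of 10 in ABE-treated tibiae (51.7% of all genes). Alpl was 4.22 to 7.36 scaled TPM in wild-type males and 8.56 to 17.0 in wild-type females, with no overlap, and Slc20a2 was 1.68 to 2.22 in males and 2.26 to 2.86 in females (females above all males in 0.448% of genes). In saline-treated tibiae Alpl had a mean of 10.7 in males and 10.9 in females. The signed log2 difference of saline-treated from wild-type was higher in males than in females for 9 of 10 members. The median of male minus female was 0.78 on the log2 scale, beside 52.8% of all genes above 0 and a median of 0.027. Higher did not always mean a larger change. For Smpd3 and Phospho1 the ratio of means to wild-type was 0.50 and 0.66 in females, and 0.89 and 1.05 in males. The interaction test called none of the 10 members after adjustment (0.505% of all genes called, with 8 members and 4842 genes at an unadjusted p under 0.05). Alpl gave 1.06 (95% CI 0.51 to 1.61, adjusted p = 0.052) and Fam20c 1.07 (95% CI 0.49 to 1.65, adjusted p = 0.055).

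Between ABE-treated and wild-type tibiae the interaction was above 0 for 10 of 10 members (53.7% of all genes) and was called for 1, Fam20c, at 1.19 (95% CI 0.61 to 1.77, adjusted p = 0.024; 2.64% of all genes called). Fam20c means were 1.45 in wild-type males, 2.16 in wild-type females, 5.12 in ABE-treated males and 3.31 in ABE-treated females. Between ABE and saline no member passed the interaction test after adjustment (0.0532% of all genes called; 1 member and 3351 genes under an unadjusted p of 0.05), with 5 of 10 above 0.

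In each sex alone, Phex, Ank and Slc20a1 kept a called difference between saline-treated and wild-type tibiae, and Slc20a2 between ABE-treated and saline-treated tibiae. Among males alone, Alpl also rose with saline (0.81, adjusted p = 0.00061), whereas its difference among females was -0.25 (adjusted p = 0.44). Smpd3 gave -0.15 among males and -1.03 among females, and neither passed alone (adjusted p = 0.65 and 0.054). Of the 3 calls between ABE and saline, Slc20a1 was -0.04 (adjusted p = 0.86) among males and -0.44 (adjusted p = 0.024) among females.

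**Figure D4:**
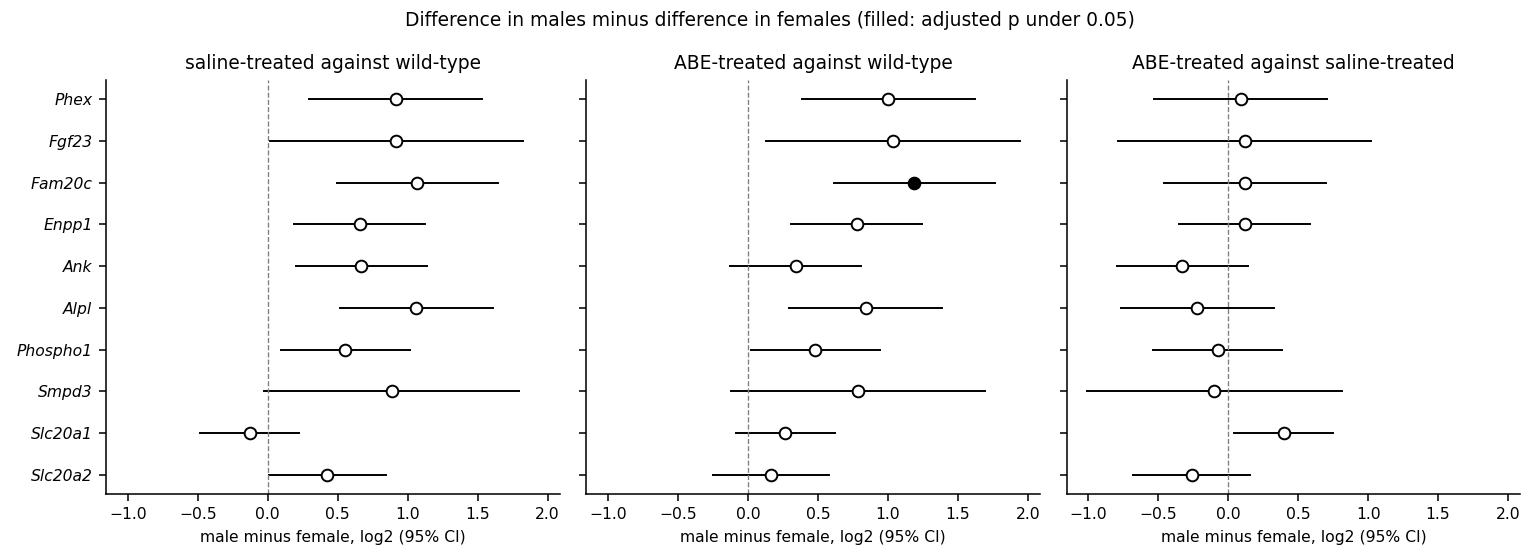
Difference between groups in males minus that in females (x axis, log2, 95% CI as a line) of each member in 3 comparisons, from the interaction of group and sex in 36 libraries, with filled points for an adjusted p under 0.05. Against wild-type, 9 of 10 points with saline and 10 of 10 with ABE lie right of 0, and only Fam20c with ABE (1.19) is filled.

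Mice of the same group and sex also differed, and the members fell into sets that varied together. After the mean of each group and sex was subtracted, Fam20c and Enpp1 had a Pearson r of 0.89 over 36 libraries, Ank and Slc20a2 0.78, Phex and Fam20c 0.77, and Alpl and Smpd3 0.76. Slc20a1 and Slc20a2 went opposite ways (-0.60). The libraries share depth and tissue make-up, and these values describe them. Against the mean of the marker lists, Fam20c (0.90), Enpp1 (0.84) and Phex (0.80) followed osteocyte markers, Smpd3 (0.90) and Alpl (0.84) osteoblast markers, Slc20a2 (0.85) and Ank (0.66) skeletal muscle markers, and Slc20a1 (0.66) erythroid markers. Other lists gave values of like size: Ank with B cell (-0.70) and erythroid markers (-0.62), Slc20a2 with neutrophil (-0.77) and erythroid markers (-0.68), Fam20c (0.75) and Enpp1 (0.72) with endothelial markers, Phex with osteoblast (0.72), Alpl with osteoclast (0.65) and Phospho1 with neutrophil markers (-0.62). Fgf23 had no value above 0.45 with any list. The part of these cell types in the group differences was not tested beyond the covariate fits.

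Genes most like each member over the 36 libraries, among those of at least 1 scaled TPM on average, were named by r alone. Phex was most like Ccn4 (0.93), Enpp6 (0.92) and Bambi (0.91). Fam20c was most like Pcdhgc3 (0.91), Sema5a (0.91) and Sema7a (0.90), and Enpp1 like Sema5a (0.89), Fam20c (0.89) and Cd200 (0.89). Smpd3 was most like Cgref1 (0.95), Col11a1 (0.95) and Gm43921 (0.94), Alpl like Ppic (0.91), Adam12 (0.90) and Serpinh1 (0.89), and Ank like Zbtb38 (0.92), Epdr1 (0.91) and Smpd1 (0.91). Slc20a2 was most like Cenpb (0.95), Nf2 (0.95) and Dyrk1b (0.95), and Slc20a1 like Dennd2c (0.91), Slc22a4 (0.90) and Fam13b (0.89). The values were lower for Phospho1, with Rom1 at 0.78, Polr3d at 0.75 and Fhod3 at 0.74, and for Fgf23, with Megf10 at 0.66, Thbs2 at 0.65 and C1s1 at 0.65.

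**Figure D5:**
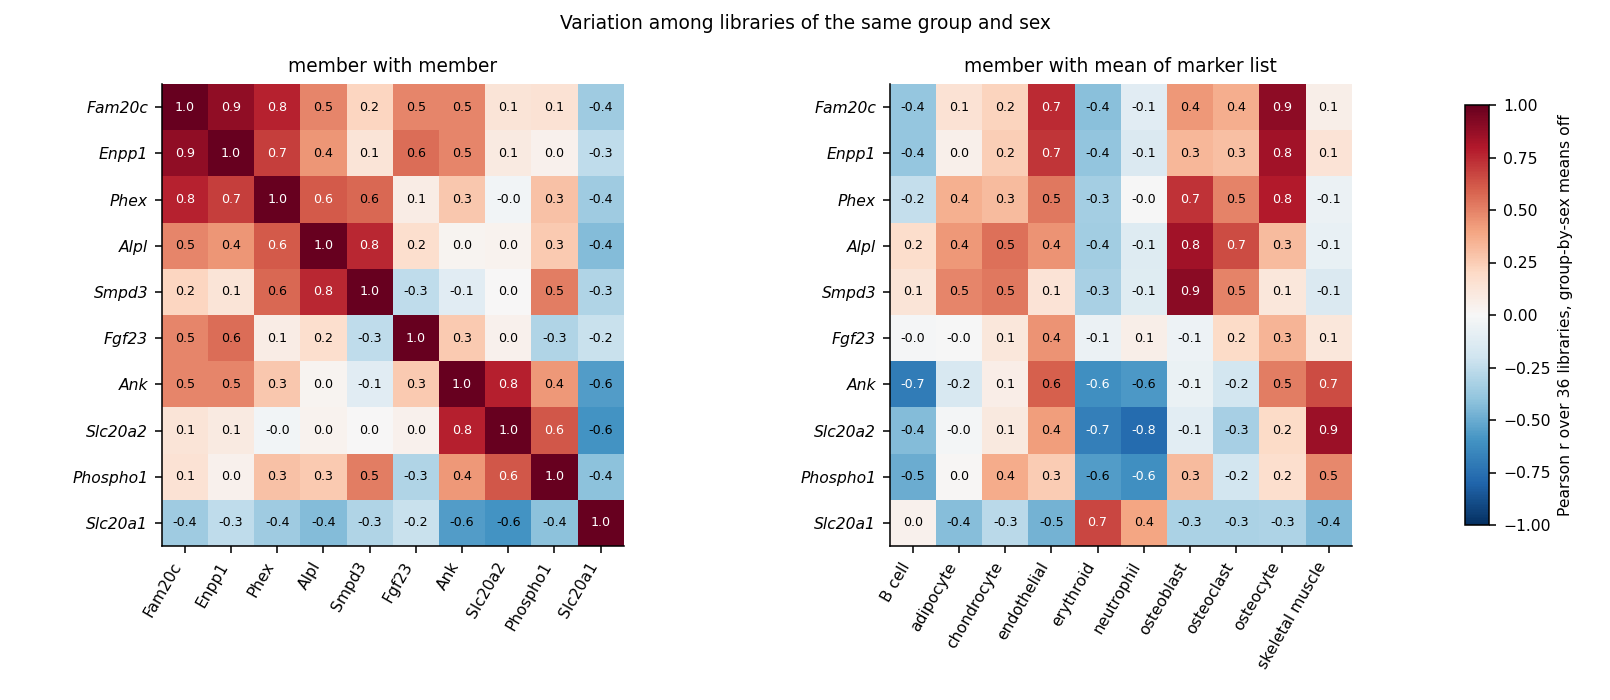
Pearson r over 36 libraries after the mean of each group and sex was subtracted, between members (left) and between members and the mean of marker lists (right), with the colour scale from -1 (blue) to 1 (red). Fam20c, Enpp1 and Phex form a set that follows osteocyte markers, Alpl and Smpd3 follow osteoblast markers, and Ank and Slc20a2 follow skeletal muscle markers.

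The other genes of each pathway were counted by list, to be read beside the share of all genes called higher and lower: 23.7% and 26.4% with saline against wild-type, 33% and 34.1% with ABE against wild-type, and 23.3% and 20.2% with ABE against saline. Of 15 genes around FGF23, 11 were tested, and the genes below the minimum included Kl, the co-receptor of the hormone, which acts in kidney. With saline 8 rose and none fell, with ABE 9 rose and none fell, and between ABE and saline 1 rose and 2 fell; the medians were 0.52, 0.69 and -0.0093 on the log2 scale. Mepe, a matrix protein of osteocytes, had means of 4.58, 126.6 and 79.7 scaled TPM in wild-type mice, with saline and with ABE, and fell by 0.66 between saline and ABE (adjusted p = 0.029). Dmp1, the matrix protein whose loss raises FGF23, had means of 11.8, 76.1 and 59.9. Fgfr1, one of the FGF receptors in the list, rose by 0.93 with saline and 1.20 with ABE, and Pth1r, the parathyroid hormone receptor, by 0.51 and 0.49. Dmp1 and Mepe are also osteocyte markers here.

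Substrates of FAM20C were higher in both progeria groups: 4 of 5 were tested (Dmp1, Mepe, Spp1 and Ibsp) and all 4 rose against wild-type, with medians of 2.47 and 1.88, and 3 fell between saline and ABE, beside 23.7% and 33% of all genes higher and 20.2% lower. Spp1, osteopontin, had means of 58.3, 257 and 142 scaled TPM in wild-type mice, with saline and with ABE, and Ibsp, bone sialoprotein, had 30.2, 73.3 and 55.6. These genes recur in other lists. Dmp1 and Mepe were counted around FGF23 and as osteocyte markers, Ibsp as an osteoblast marker and Spp1 among the inhibitors. Among mineralization inhibitors and the enzymes that carboxylate them, 4 of 6 were tested. With saline 2 rose (Spp1 and Vkorc1, which recycles vitamin K, by 0.42), with ABE 3 rose (Spp1, Mgp and Ggcx), none fell in either, and the medians were 0.29 and 0.49. Mgp, the matrix Gla protein that holds back mineral, had means of 11.8, 13.2 and 19.9, and Ggcx, the carboxylase, rose by 0.33 between saline and ABE. That comparison had 2 rises and 1 fall, with a median of 0.070.

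Of 10 genes of matrix vesicles and phosphocholine, all were tested. With saline 6 rose and 1 fell, with ABE 5 rose and 2 fell, and between ABE and saline 3 rose and 1 fell, with medians of 0.31, 0.17 and -0.018. Between ABE and saline these counts are near the shares over all genes (23.3% and 20.2%). Against wild-type more of the 10 rose than the shares of all genes (23.7% with saline, 33% with ABE). Fewer fell (26.4% and 34.1% of all genes), and with 10 genes this was not tested. Among annexins, which bind calcium in the vesicle membrane, Anxa2 rose by 0.66 and 0.48 against wild-type and Anxa6 by 0.40 and 0.82, while Anxa5 rose by 0.33 with saline and gave 0.15 with ABE. Car2, a carbonic anhydrase, had means of 50.5, 62.2 and 34.5 and fell by 0.99 between saline and ABE (adjusted p = 0.0030). Against wild-type it gave 0.30 with saline, which did not pass, and -0.69 with ABE. Osteoclast markers had medians of 1.11 with saline, 0.71 with ABE against wild-type and -0.57 with ABE against saline. Erythroid markers had 0.049, -0.76 and -0.96 in the same order, and the part of either cell type was not tested. Of 9 genes of pyrophosphate and nucleotide handling, 8 were tested, with 2 higher and 3 lower with saline, 1 and 1 with ABE, 1 and 1 between them, and medians of 0.0018, -0.028 and 0.056, counts that are near or below the shares over all genes. Slc29a1, a nucleoside transporter, rose by 0.18 and Entpd1, which splits ATP, by 0.25 with saline, Entpd5 fell by 0.14, and the pyrophosphatase gene Ppa2 rose by 0.35 with ABE.

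Only 3 of 6 other genes of phosphate transport were tested. Xpr1, the phosphate exporter, rose by 0.68 ± 0.08 with saline (adjusted p = 4.70e-08) and by 0.78 ± 0.08 with ABE (adjusted p = 2.28e-09). Slc37a2, a sugar-phosphate transporter of macrophages and osteoclasts, rose by 0.66 with saline and fell by 0.54 between saline and ABE. Slc9a3r1, a scaffold for phosphate transporters, fell by 0.50 with ABE against wild-type and against saline alike. The counts were 2 higher and none lower with saline, 1 and 1 with ABE, and none and 2 between them, with medians of 0.66, 0.12 and -0.50, and 3 genes are too few to set against the shares over all genes. Of osteoclast markers, 6 of 6 were higher with saline and 4 of 6 with ABE, and 4 of 6 were lower with ABE than with saline; their part in these values was not tested.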

How the data were processed

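RNA of 36 tibiae was sequenced from TruSeq stranded mRNA libraries. The authors aligned reads with STAR (2.73a in their processing notes) to GRCm38, used QoRTs with GENCODE annotation to count them per gene, and deposited values as TPM; how TPM were calculated is not given in the sources used here. In the deposited TPM each value is a whole number of reads divided by gene length less 218 bp, with 1 bp as the smallest length, and multiplied by a constant per library. This gave the reads quoted. All 100% of values above 0 were whole within 0.01, a tolerance widened in proportion for the highest counts. Libraries were rescaled by median ratios over the 14219 genes whose average TPM reached 0.5 and whose TPM was above 0 in every library. Genes with a mean of at least 0.1 scaled TPM (22561) were tested with limma 3.58.1 in R 4.3.3, as log2(scaled TPM + 0.1) with group and sex, an intensity trend, Benjamini-Hochberg adjustment and a threshold of 0.05; fold changes are on that scale and understate changes of low genes. Sex was tested as an interaction. The fit was tested on simulated data. Log2 ratios were compared by permutation (Python 3.11.15, fixed seeds). Group labels were permuted over both sexes together, so the p-values of the ratios take no account of sex. The authors' own differential test was not used. Replicate numbers follow the order of the samples and pair nothing; the labels give 1 mouse per library and no litters, and no pair of libraries was identical. Each member was named in full, the lists gave up to 4 genes called in any comparison with the highest mean, and 3 most similar genes were named per member. Gene positions are from GENCODE vM21 on GRCm38, matched by identifier. Members, lists and tests were chosen with earlier results of these data known. Intervals cover sampling within groups of 12.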

Additional observations from a re-analysis of the deposited data

Results flagged for a closer look

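One difference between the sexes passed its own test. The rise of Fam20c between wild-type and ABE-treated tibiae was larger in males than in females by 1.19 on the log2 scale (interaction in limma, adjusted p = 0.024). All 6 ABE-treated males lay above all 6 wild-type males, and 4 of 6 ABE-treated females lay above all wild-type females. The call was lost without wild-type replicate 6 or 11 or ABE-treated replicate 6, 8 or 12, with values from 1.12 to 1.14 and adjusted p from 0.052 to 0.056. No test of single outlying samples was run.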

How the results depend on the processing

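Under other settings, 412 values kept their direction and side of the threshold, 42 reversed, 41 lost and 16 gained a call. With 1 library left out these numbers were 1062, 14, 28 and 12. The cause was not tested unless stated. Called members (6 with saline against wild-type, 8 with ABE against wild-type and 3 with ABE against saline) became 2, 2 and 5 with the osteocyte covariate, 2, 4 and 1 with covariates for 4 cell types (muscle, neutrophil, B cell, erythroid), 3 with saline against wild-type among females, and 1 with ABE against saline among males, with the muscle covariate and in TPM as deposited; leaving out single libraries gave 5 to 7, 8 and 1 to 5 (1 without saline-treated replicate 2 or 6 or ABE-treated replicate 12, 5 without ABE-treated replicate 2). Sex differences called were 0 to 4 with saline and 0 to 4 with ABE against wild-type without single libraries (4 without wild-type replicate 10 in both, and without ABE-treated replicate 7 with ABE), 1 with saline at a pseudocount of 0.02 or a minimum of 0.5, which gives no value for Fgf23, and 3 with ABE in TPM as deposited.

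Some log2 ratios lost their call in single sexes, where 6 libraries stand against 6; Slc20a1 to Slc20a2 kept it in males against wild-type (-1.03 with saline, -1.66 with ABE) and in females with ABE (-1.75 against wild-type, -1.31 against saline). Alpl to Enpp1 was -0.37 in males and -0.75 in females with saline against wild-type, and 0.25 and 0.60 with ABE against saline. Alpl to Ank was -0.40 and -0.80 with saline and -0.21 and -0.72 with ABE against wild-type, and Fgf23 to Phex -0.49 and -1.27 with saline. Slc20a1 to Slc20a2 was -0.44 in females with saline against wild-type and -0.63 in males with ABE against saline. Without single libraries Alpl to Ank ran from -0.54 to -0.39 with ABE and Fgf23 to Phex from -1.03 to -0.71 with saline.

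Reversed log2 differences with the osteocyte covariate were, with saline against wild-type, Phex -0.44, Fgf23 -1.16, Fam20c -1.29, Enpp1 -0.93, Ank -0.18, Alpl -0.93 and Slc20a2 -0.42, and with ABE against wild-type Phex -0.46, Fgf23 -0.84, Fam20c -1.07, Enpp1 -0.83, Alpl -0.43 and Phospho1 -0.55. With saline, Slc20a2 was -0.15 in TPM as deposited, -0.013 after quantile normalization, -0.17 with TPM rescaled to longer genes, -0.22 with the muscle covariate, -0.17 with 4 cell types, -0.20 in females and -0.024 to 0.078 without single libraries. Alpl was -0.25 in females and Phospho1 0.073 in males. With ABE against wild-type, Phospho1 was -0.46 as deposited, -0.17 with longer genes, -0.34 with muscle, -0.34 with 4 cell types, -0.21 in females, -0.15 in voom and -0.033 to 0.11 without single libraries. With ABE against saline, values as deposited were Fam20c -0.30, Enpp1 -0.37, Ank -0.11, Phospho1 -0.11 and Smpd3 -0.24. Fam20c was -0.040 with muscle and -0.093 in voom, and Smpd3 -0.11 with 4 cell types and -0.032 in voom. Enpp1 was -0.016 after quantile normalization, -0.023 with longer genes, -0.10 with muscle, -0.037 with 4 cell types, -0.051 in females, -0.18 in voom and -0.035 to 0.058 without single libraries. Ank gained a call with ABE against saline without wild-type replicate 6, saline-treated replicate 11 or 12 or ABE-treated replicate 2, 3, 9 or 10 (0.30 to 0.36), and Phospho1 without ABE-treated replicate 2 (0.29).

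Genes called higher and lower over the whole table in TPM as deposited were 2144 and 12467 with ABE against wild-type and 774 and 8069 with ABE against saline, beside 7436 and 7700 and 5266 and 4559 here. Rescaled to longer genes, they were 2533 and 9018 with saline and 4909 and 10381 with ABE against wild-type. In voom they were 5348 and 9480 with ABE against wild-type and 2820 and 7830 with ABE against saline. All calls with saline against wild-type (11302) were 6324 as deposited, 3520 with the osteocyte covariate, 3390 with 4 cell types and 4906 in females. With ABE against wild-type (15136) they were 14611 as deposited, 2184 with the osteocyte covariate, 3926 with 4 cell types and 8090 with muscle. With ABE against saline (9825) they were 2499 with muscle, 2276 with 4 cell types, 4388 in males and 5804 in females. No paired analysis was possible because the labels give the groups no shared replicate numbers. Fgf23 and Phospho1 rest on the fewest reads.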
